A study of Mus musculus with 4 samples.

Results

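The 10 genes described here, whose products are known from neutrophils, were measured in tumor-associated macrophages (TAMs). They are the alarmin genes S100a8 and S100a9, the granule and secreted protein genes Lcn2, Slpi, Hp and Chil1, the metabolic genes Hdc and G0s2, and the receptor genes Csf3r and Trem1. The 10 genes were chosen by their fold changes between propranolol treated and control mice in these same libraries, so their differences are given as values, with no test. They were found as the entries of the count table whose Ensembl identifier maps to these symbols in GENCODE release M21, which gave 10 of the 54146 genes listed. All 10 were among the 14688 genes with enough counts for a test.

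The TAMs were viable CD11b+F4/80+ cells obtained by FACS, after enrichment of CD45+ cells with magnetic beads, from subcutaneous tumors of MCA205, a mouse fibrosarcoma line. Both groups were female mice aged 8 to 16 weeks that carried MCA205 tumors, and the labels give no strain for the sequenced mice. Propranolol, a nonselective blocker of beta-adrenergic receptors, was given at 0.5 g/L in the drinking water from the day of inoculation, and the control mice are labelled vehicle. Poly-adenylated RNA of 2 libraries per group was sequenced, which the study calls biological replicates without saying how many mice each one holds. The libraries held 13798249 and 23018142 counts in the control group and 39818103 and 16424081 in the propranolol group, so the same count stands for a higher level in control replicate 1 than in propranolol replicate 1.

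S100A8 and S100A9 form calprotectin, a calcium- and zinc-binding complex that fills the cytosol of neutrophils and is released as an alarmin at sites of inflammation. Neutrophils build their granules in order during maturation, first primary granules with myeloperoxidase and elastase, then specific granules with lactoferrin and lipocalin-2, and last gelatinase granules and secretory vesicles. Monocytes and macrophages also transcribe several of these genes, among them S100a8, S100a9, Slpi, Csf3r and Trem1, so those named here do not mark neutrophils alone. In RNA from bulk sorted cells, a different number of cells of one type and a different amount of transcript per cell cannot be told apart.

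Sequences before the start sites are shown because C/EBP factors are known regulators of granulocyte genes. Of 6 stretches that lie at least in part outside the gene in GENCODE, the 4 with a match to the C/EBP core were chosen for this match, and those of G0s2 and Csf3r, without one, are not shown. They come from the RefSeq promoter table (build GRCm38.p6, 9 of the 10 genes matched), run 5′ to 3′ on the strand of the gene and are cut where the GENCODE gene begins. Capitals mark matches to TTNNGNAA, a core of C/EBP sites, or to its reverse complement TTNCNNAA. The S100a8 stretch is chr3:90668821-90668977 (plus strand), that of S100a9 is chr3:90695722-90695971 (minus strand), that of Chil1 is chr1:134181906-134182155 (plus strand) and that of Trem1 is chr17:48232489-48232738 (plus strand).
S100a8: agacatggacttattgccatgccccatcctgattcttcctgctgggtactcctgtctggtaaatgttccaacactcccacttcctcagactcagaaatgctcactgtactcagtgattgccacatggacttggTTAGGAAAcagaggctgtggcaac
S100a9: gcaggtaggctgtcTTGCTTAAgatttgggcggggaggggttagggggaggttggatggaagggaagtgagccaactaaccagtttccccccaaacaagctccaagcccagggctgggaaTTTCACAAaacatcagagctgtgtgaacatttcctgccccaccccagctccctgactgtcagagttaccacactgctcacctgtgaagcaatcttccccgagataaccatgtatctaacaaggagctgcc
Chil1: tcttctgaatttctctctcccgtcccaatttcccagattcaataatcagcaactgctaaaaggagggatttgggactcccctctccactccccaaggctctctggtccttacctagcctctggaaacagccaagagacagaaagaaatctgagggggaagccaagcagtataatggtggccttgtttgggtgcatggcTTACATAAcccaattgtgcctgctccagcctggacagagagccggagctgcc
Trem1: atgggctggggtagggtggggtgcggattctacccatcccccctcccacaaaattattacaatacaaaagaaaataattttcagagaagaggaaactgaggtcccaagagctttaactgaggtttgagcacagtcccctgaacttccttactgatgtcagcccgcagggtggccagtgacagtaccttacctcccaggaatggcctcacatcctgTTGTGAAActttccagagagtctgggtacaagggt
Both strands of the 250 bases before the RefSeq start were searched. For Lcn2, Slpi and Hdc these bases lie wholly inside the GENCODE gene, so their matches do too. The C/EBP core was present in 6 of the 9 promoters (S100a8, S100a9, Lcn2, Slpi, Chil1 and Trem1), against 36.8% of all 32851 promoters in the table. The other letters searched were GAGGAA for PU.1, found in 4 (S100a8, Lcn2, Csf3r and Trem1, against 23.3% of all promoters), GGANTTNCC for NF-kappa-B, found in Hdc alone (3.15%), and TGACG, the half-site of cAMP response elements, found in G0s2 alone (17.8%). Distances are counted from the RefSeq start, which for S100a8 lies inside the GENCODE gene, so that its printed stretch ends before that start. The C/EBP match lay 117 bases before the RefSeq start of S100a8 and 35 before that of Trem1, and S100a9 had one at 236 and one at 130. A match describes the letters and is not evidence of binding.

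All 10 genes were higher in both propranolol libraries than in both control libraries, which held for 35.8% of all tested genes, and 9 of the 10 exceeded 1.5-fold, where 12.2% of tested genes were called higher and 15.6% lower. A gene was called at an adjusted p under 0.05 (edgeR quasi-likelihood test with Benjamini-Hochberg adjustment over all tested genes) and a change over 1.5-fold. Since the genes were selected on this contrast, nothing is read from these counts. The median log2 fold change of the 10 genes was 2.04, and that of all tested genes -0.02. Levels below are CPM, counts scaled to the TMM-normalized size of the library, and errors of fold changes are standard errors (SE).

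**Figure D1:**
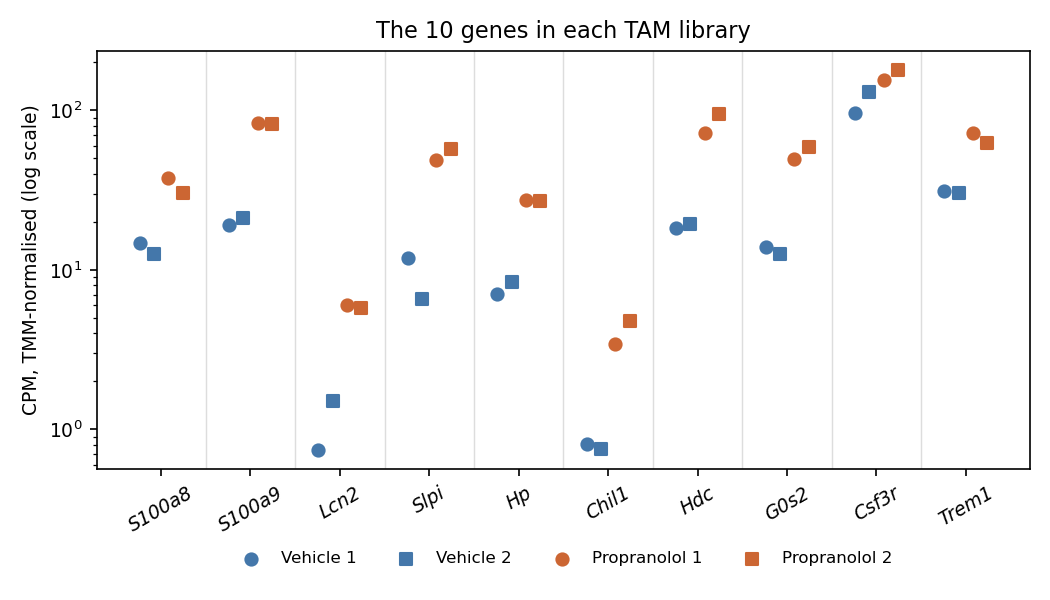
CPM (log axis) of the 10 genes in each of the 4 libraries, with circles for replicate 1 and squares for replicate 2 of the control (labelled vehicle, blue) and propranolol (orange) groups. For every gene both orange points lie above both blue points, with the smallest gap for Csf3r (129.5 CPM in control replicate 2 and 154 in propranolol replicate 1).

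S100a8 and S100a9, the calprotectin pair, are neighbours on chromosome 3, 22597 bases apart and on opposite strands (S100a8, ENSMUSG00000056054.9, 90668978 to 90670035; S100a9, ENSMUSG00000056071.12, 90692632 to 90695721; GRCm38). S100a9 had 19.2 and 21.1 CPM in the control libraries and 83.8 and 82.4 CPM in the propranolol libraries. The groups were far apart against the spread within them, and the log2 fold change was 2.04 (SE 0.12). S100a8 had 14.7 and 12.5 CPM in the control libraries and 37.7 and 30.2 CPM in the propranolol libraries, without overlap, and a log2 fold change of 1.33 (SE 0.16). The pair did not move in proportion. On the TPM scale, which accounts for the length of the exons, the ratio of S100a8 to S100a9 was 0.575 and 0.447 in the control libraries, against 0.338 and 0.275 in the propranolol libraries, so that S100a9 was the more abundant member in every library and by more after propranolol.

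Lcn2 encodes lipocalin-2, a specific granule protein that binds bacterial siderophores and so withholds iron (ENSMUSG00000026822.14, chromosome 2, 32384633 to 32388252). It had 11 and 38 counts in control TAMs, against 220 and 88 counts in the propranolol libraries, which is 0.742 and 1.52 CPM against 6.05 and 5.76 CPM. The propranolol libraries lay close together, and control replicate 2 was the higher of the control libraries. The log2 fold change was 2.33 (SE 0.38), and 3.00 without control replicate 2. Slpi encodes the secretory leukocyte protease inhibitor, which blocks neutrophil elastase and cathepsin G (ENSMUSG00000017002.14, chromosome 2, 164354070 to 164389095, with the miRNA gene Mir7678 inside its span). Slpi had 11.9 and 6.54 CPM in the control libraries and 48.9 and 57.6 CPM in the propranolol libraries. Its log2 fold change of 2.57 (SE 0.23) was the highest of the 10 in this fit, with overlapping error ranges for Lcn2 and Chil1. It was not the highest after the GC correction, where S100a9 was, or without control replicate 2, where Lcn2 was.

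Hp encodes haptoglobin, which binds free hemoglobin and is stored in neutrophil granules besides its secretion by the liver (ENSMUSG00000031722.10, chromosome 8, 109575128 to 109579172). It had 7.01 and 8.45 CPM in the control libraries and 27.3 and 27.2 CPM in the propranolol libraries. The groups were separate, with a log2 fold change of 1.81 (SE 0.16). Chil1 encodes chitinase-3-like protein 1, a lectin of specific granules that is also secreted by macrophages and has no chitinase activity (ENSMUSG00000064246.10, chromosome 1, 134182176 to 134190181). Its counts were low, 12 and 19 in the control group, against 125 and 73 in the propranolol libraries. These are 0.809 and 0.757 CPM against 3.44 and 4.78 CPM, with a log2 fold change of 2.38 (SE 0.42), the largest SE of the 10.

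Hdc encodes histidine decarboxylase, the enzyme that makes histamine (ENSMUSG00000027360.5, chromosome 2, 126593667 to 126619299). It had 18.3 and 19.3 CPM in the control libraries and 71.9 and 94.8 CPM in the propranolol libraries. Both propranolol values were far above the control values, although they differed among themselves more than the control libraries did, and the log2 fold change was 2.14 (SE 0.15). G0s2 encodes an inhibitor of adipose triglyceride lipase (ENSMUSG00000009633.3, chromosome 1, 193272161 to 193273217) and lies within the span of Lamb3 on the opposite strand, where no Lamb3 exon overlaps it. G0s2 had 13.96 and 12.5 CPM in the control libraries and 49.7 and 58.7 CPM in the propranolol libraries, without overlap. The log2 fold change was 2.03 (SE 0.14).

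Csf3r encodes the receptor of G-CSF, the cytokine that drives granulocyte production (ENSMUSG00000028859.14, chromosome 4, 126024550 to 126044440). It had 97.0 and 129.5 CPM in the control libraries and 154 and 179.7 CPM in the propranolol libraries. Its log2 fold change of 0.56 (SE 0.14) was the lowest of the 10 and under 1.5-fold, and it was between 0.42 and 0.80 with 1 library left out. On the TPM scale its groups overlapped, with 87.9 and 121 TPM in the control group, against 118 and 143 TPM in the propranolol libraries. Trem1 encodes an activating receptor of neutrophils and monocytes that amplifies inflammatory signals (ENSMUSG00000042265.13, chromosome 17, 48232768 to 48246924, overlapped by a processed pseudogene on the other strand). It had 31.1 and 30.3 CPM in the control libraries and 71.9 and 62.8 CPM in the propranolol libraries. The groups did not overlap, and the log2 fold change was 1.14 (SE 0.12).

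**Figure D2:**
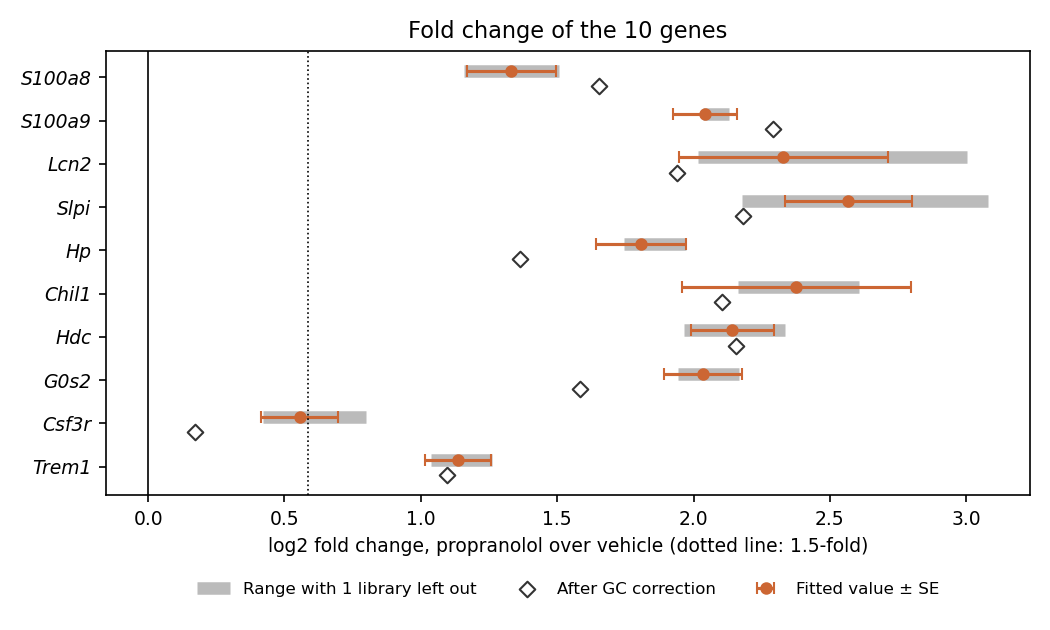
log2 fold change, propranolol over control, of the 10 genes. Orange points with bars are fitted values ± SE, grey bars are the range with 1 library left out and diamonds are values after the GC correction. 9 genes lie beyond the dotted line of 1.5-fold under both fits, and Csf3r lies below it (0.56, and 0.17 after the correction).

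Fold changes in these libraries rose with the GC content of a gene, so the values were also computed after a smooth GC trend had been removed from each library. The 10 genes had a median GC content of 53.1%, against 49.6% for the tested genes. After the correction their median log2 fold change was 1.80, against -0.04 over the tested genes, and 9 of the 10 exceeded 1.5-fold, where 4.34% of tested genes were called higher and 6.47% lower. S100a8 (GC content 44.2%) and S100a9 (45.1%) belong to a group of genes of similar GC content whose median log2 fold change was -0.33, and their values became larger, 1.65 and 2.29. Hp (56.2%) and G0s2 (56.4%) belong to a group with a median of 0.47, and their values became smaller, 1.36 and 1.58. Hdc (2.15) and Trem1 (1.10) hardly moved, while Slpi (2.18), Chil1 (2.10), Lcn2 (1.94) and Csf3r (0.17) became smaller.

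Compared per length, the 10 genes covered a wide range of levels. TPM here uses the summed exons of a gene. With the longest transcript instead, 5 control levels moved by more than their SD, S100a9 to 100.1 TPM, G0s2 to 39.2, Trem1 to 26.5, Hdc to 10.7 and Chil1 to 1.10, and Slpi (27.0 TPM) then lay above Trem1. In control TAMs S100a9 was the most abundant with 128 ± 10.8 TPM (SD, n = 2 libraries), followed by Csf3r with 104 ± 23.3 TPM, whose range overlapped with that of S100a9. S100a8 had 65.0 ± 6.06 TPM and G0s2 50.4 ± 2.86 TPM. Trem1 had 34.01 ± 0.0733 TPM, Slpi 25.8 ± 10.1 TPM and Hp 16.0 ± 2.43 TPM, where the higher library of Slpi (32.9 TPM) came near to Trem1. Hdc had 9.77 ± 0.574 TPM, and Lcn2 (1.44 ± 0.721 TPM) and Chil1 (0.927 ± 0.0245 TPM) were the lowest and changed places between the control libraries. In TAMs from propranolol treated mice S100a9 stood apart with 448 ± 7.42 TPM. G0s2 followed with 175 ± 25.4 TPM, then S100a8 (137 ± 17.7 TPM), Csf3r (130.5 ± 17.7 TPM) and Slpi (127 ± 18.3 TPM), which were not separated beyond their spread. Lcn2 (6.34 ± 0.0405 TPM) and Chil1 (4.14 ± 1.07 TPM) stayed the lowest. All 10 together took 0.0231% and 0.0264% of the counts in the control libraries, against 0.0507% and 0.0562% in the propranolol libraries, and their summed level was 215 and 242.5 CPM against 555 and 604 CPM.

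**Figure D3:**
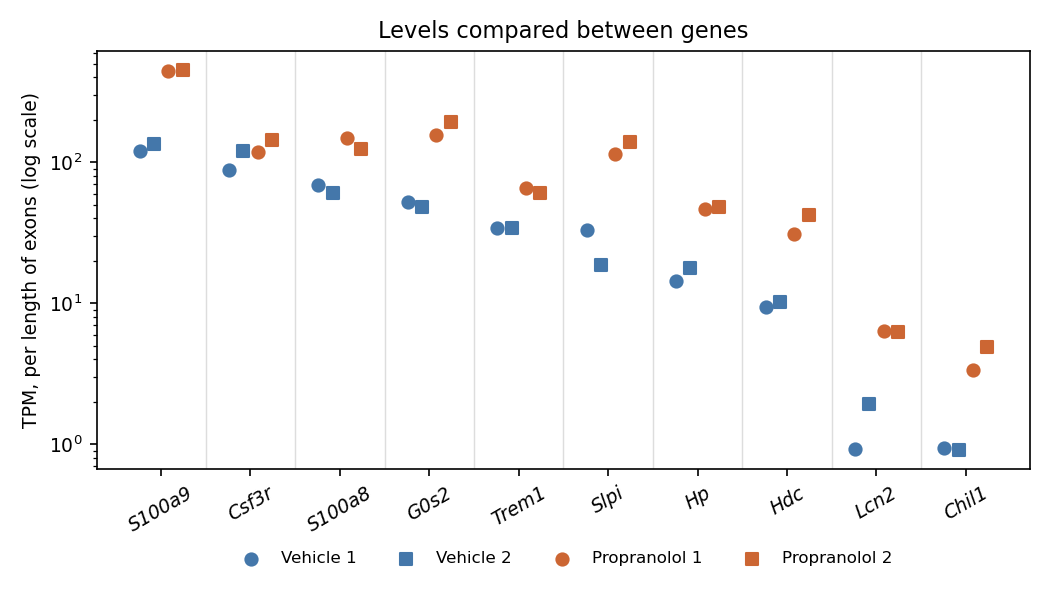
TPM (log axis) of the 10 genes in each library, ordered by the mean of the control libraries, with circles for replicate 1 and squares for replicate 2. S100a9 was the highest in all 4 libraries, Lcn2 and Chil1 the lowest, and the points of Csf3r overlap between the groups (121 TPM in control replicate 2, 118 in propranolol replicate 1).

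Other genes of neutrophils were taken from 4 lists by compartment, without the 10 genes. Of 54 listed genes, 36 had enough counts, and 15 of them (41.7%) were called higher after propranolol and 1 lower, against 12.2% and 15.6% of all tested genes. Their median log2 fold change was 0.66. Among proteins of primary granules, made first in neutrophil maturation, 0 of 4 tested genes (Prtn3, Cd63, Cst7 and Serpinb1a) were called higher by the edgeR quasi-likelihood test. With 12.2% of all tested genes called higher, nothing is read from 0 of 4. Cst7, an inhibitor of cysteine proteases, was lower (log2 fold change -1.03, SE 0.28). At an unadjusted p under 0.05, 1 of the 4 was higher, and DESeq2 called 0 higher. In the specific granule list 3 of 9 tested genes were higher, in the gelatinase granule and secretory vesicle list 3 of 9, and in the list of surface and cytosol genes of mature neutrophils 9 of 14. The lists were not compared by a test.

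**Figure D4:**
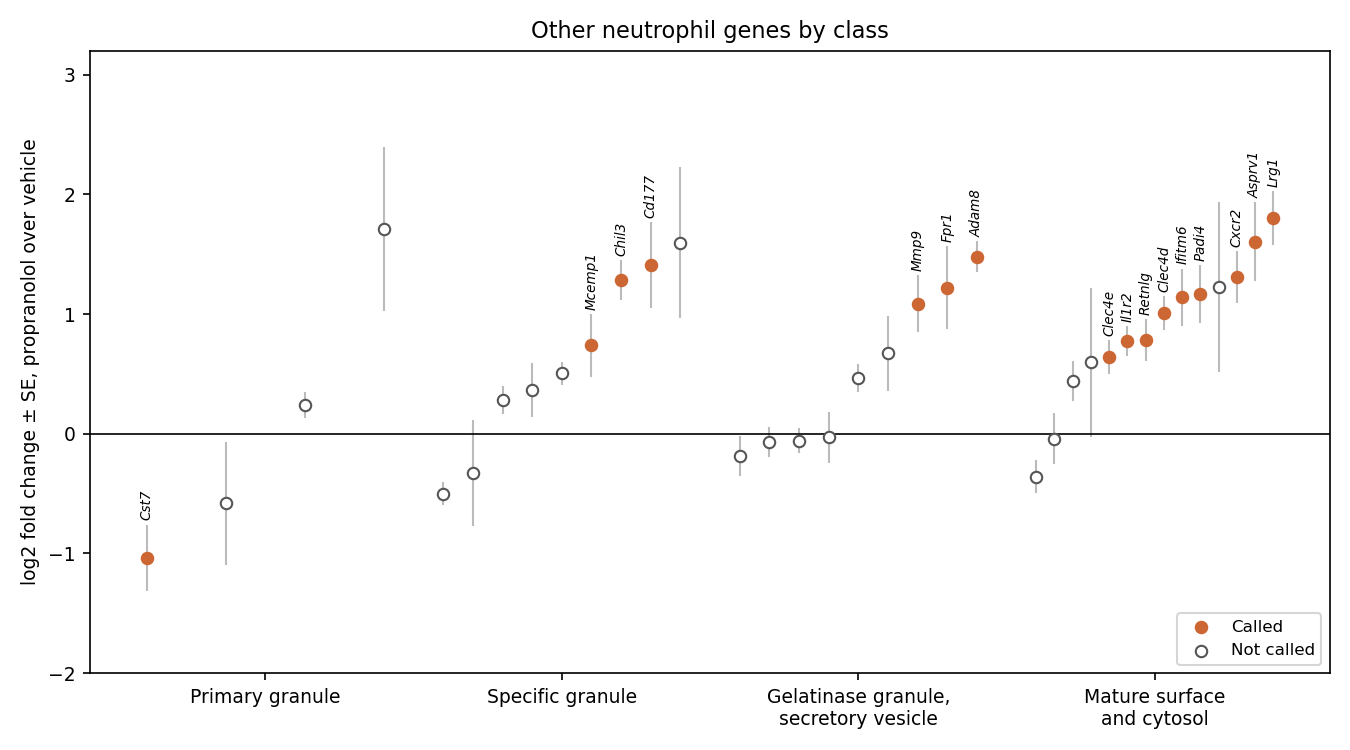
log2 fold change ± SE, propranolol over control, of the tested genes in 4 neutrophil lists, without the 10 genes. Filled points were called by the edgeR quasi-likelihood test and are named. The list of mature surface and cytosol genes, with 14 tested genes, holds 9 of the 15 genes called higher. The primary granule list, with only 4 tested genes, holds none of them.

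The genes that define the primary granule were at the limit of detection. Mpo, which encodes myeloperoxidase, had 2 and 2 counts in control TAMs, against 9 and 0 in the propranolol libraries, and Elane, which encodes neutrophil elastase, had 1 and 0 against 8 and 0. Prtn3, which encodes proteinase 3, had 5 and 5 against 33 and 12 counts and did not pass (log2 fold change 1.71, SE 0.68, adjusted p = 0.0685 from the edgeR test with Benjamini-Hochberg adjustment). Cd63, a membrane protein shared with lysosomes, was the most abundant gene of this list. Of the specific granule genes, Camp had 0 and 6 counts against 1 and 1, Ngp 7 and 7 against 15 and 3, and Ltf, which encodes lactoferrin, had a log2 fold change of -0.33 (SE 0.44) and was not called. Lcn2, whose product is stored in the same granule as lactoferrin, had 2.33.

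The called specific granule genes were Chil3, a chitinase-like lectin also made by macrophages and monocytes (13.3 and 10.5 CPM against 30.8 and 26.5, log2 fold change 1.28, SE 0.17), Cd177, a surface glycoprotein of neutrophils (1.48 and 2.15 CPM against 5.72 and 4.00, 1.41, SE 0.36), and Mcemp1 (0.74, SE 0.26). The call of Cd177 was lost without propranolol replicate 1 (1.12), and that of Mcemp1 without propranolol replicate 1 (0.55) or control replicate 2 (0.39), with upper-quartile normalization (0.68) or with a stricter filter on low counts that required 1 CPM or more in each library of a group (0.72). Lyz2, the most abundant gene of the list and expressed throughout myeloid cells, had a log2 fold change of 0.28 (SE 0.11) and was not called. In the gelatinase granule list Adam8, a membrane metalloprotease, had 408 and 538.8 CPM in the control libraries and 1351 and 1293 CPM in the propranolol libraries (1.48, SE 0.13). Fpr1, a receptor of formylated peptides (1.22, SE 0.35, and 1.84 without control replicate 2), and Mmp9, gelatinase B (1.09, SE 0.24), were also called, the latter not by DESeq2 (adjusted p = 0.0559). After the GC correction Cd177 (0.996), Mcemp1 (0.71) and Mmp9 (0.66) were no longer called.

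Of the mature neutrophil genes, Lrg1 had 6.47 and 4.58 CPM against 17.0 and 21.3 (1.80, SE 0.22), Asprv1 had 2.83 and 1.79 CPM against 6.19 and 7.73 (1.61, SE 0.33), and Cxcr2, the receptor through which neutrophils follow CXC chemokines, had 4.38 and 4.78 CPM against 11.6 and 11.2 (1.31, SE 0.22). The groups were separate for each. Padi4, which encodes an enzyme that citrullinates histones (1.17, SE 0.24), Retnlg (0.79, SE 0.17) and Il1r2, a decoy receptor of interleukin-1 (0.77, SE 0.12), were called as well. After the GC correction, Padi4 (0.76) was not. Wfdc17, the most abundant gene of this list per length, had a log2 fold change of -0.36 (SE 0.14) and was not called. Ly6g, which encodes the antigen used to sort mouse neutrophils, had 0 and 2 counts in control TAMs, against 17 and 8 in the propranolol libraries, too few for the test. Its ratio on the TMM scale was 9.66, with an exact 95% counting interval from 2.41 to 84.2 that covers counting error only.

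The neutrophil marker list of 16 genes had a summed level of 61.6 and 55.6 CPM in the control libraries and 112 and 111 CPM in the propranolol libraries. All 16 are also in the lists by compartment above, so their calls are already counted there and are not a separate result. Its most abundant gene was Il1r2 in CPM and Retnlg per length, 6 of its 11 tested genes were called higher and 0 lower (0 lower also at an unadjusted p under 0.05 in edgeR and by DESeq2), against 12.2% and 15.6% of all tested genes, and Mmp8 (0.67, SE 0.32), Stfa2l1 (0.60, SE 0.62, and -0.02 without propranolol replicate 1) and Olfm4 (1.597, SE 0.63) were not called. Mmp8 (1.05) and Olfm4 (2.10) were called higher after the GC correction. In control replicate 1 Ly6g and Camp were at 0, in control replicate 2 Elane, and in propranolol replicate 2 Mpo and Elane. Camp, Ngp, Ltf, Mpo, Elane and Stfa2l1 overlapped between the groups in CPM. The part of neutrophils among the sorted cells in the values of the 10 genes was not tested.

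**Figure D5:**
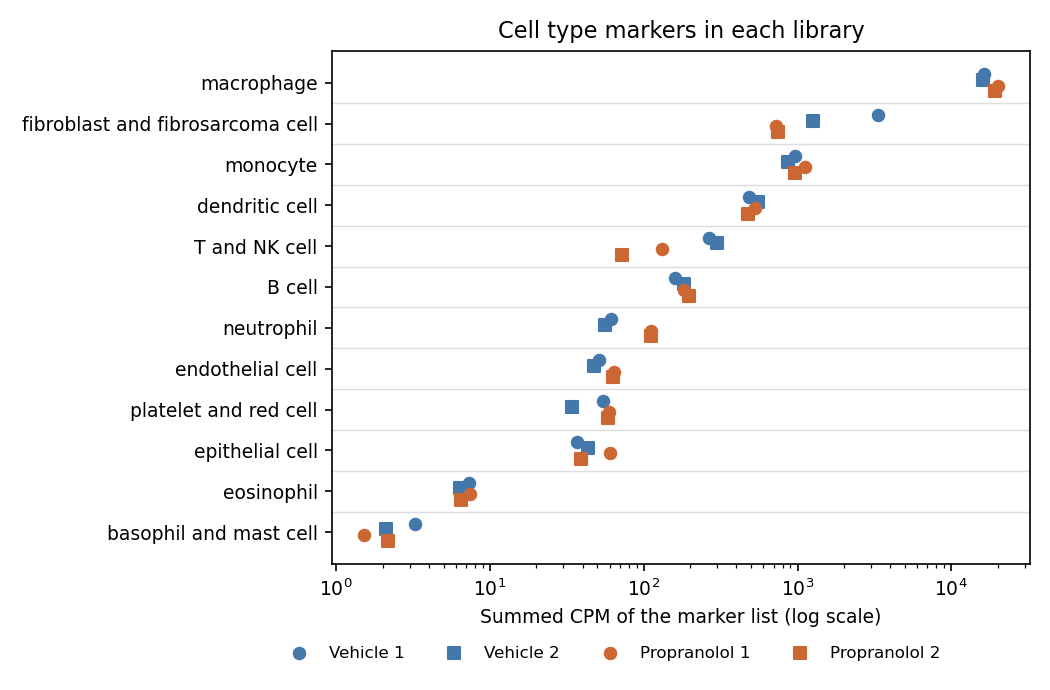
Summed CPM (log axis) of 12 lists of cell type markers in each library, with circles for replicate 1 and squares for replicate 2 of the control (blue) and propranolol (orange) groups. Macrophage markers were the highest in every library, the summed markers of macrophages, neutrophils, B cells, endothelial cells and of platelets and red cells were higher in both propranolol libraries, and those of fibroblasts and of T and NK cells were lower in both.

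Macrophage markers were present at high levels, as the labelled cell type requires. The 10 macrophage markers summed to 16210 and 16150 CPM in the control libraries and 20140 and 19220 CPM in the propranolol libraries, and Adgre1, which encodes the sort antigen F4/80, had 975 and 1008 CPM against 1151 and 1100 CPM. C1qa had a log2 fold change of -0.18 (SE 0.08) and was not called, but was called lower after the GC correction (-0.63). Of the 10, 1 was called higher, Csf1r (0.59, SE 0.09), and not without propranolol replicate 2 (0.55), with upper-quartile normalization (0.54), with the stricter filter on low counts (0.57) or after the GC correction (0.20). Among 7 monocyte markers, 3 were called higher, namely Chil3, Plac8 (0.79, SE 0.14) and F13a1 (0.62, SE 0.10), and without propranolol replicate 1 Plac8 (0.58) and F13a1 (0.55) were not, nor was F13a1 with upper-quartile normalization (0.56). Ccr2, the most abundant monocyte marker in CPM in the control libraries, had 454 and 397 CPM against 306 and 262 CPM (-0.58, SE 0.11), just under 1.5-fold, and 0.23 after the GC correction. Its call as lower was made without control replicate 2 (-0.66) or propranolol replicate 1 (-0.69), with upper-quartile normalization (-0.64) and with the stricter filter on low counts (-0.60). Over all tested genes 12.2% were called higher and 15.6% lower. Of 8 fibroblast and fibrosarcoma markers, 7 were called lower, and Pdgfrb (-0.77, SE 0.31) was lower but not called. Their summed levels were 3321 and 1267 CPM in the control libraries and 719 and 752 CPM in the propranolol libraries. The most abundant per length, Col1a1 (-1.29, SE 0.30), was not called by DESeq2 (adjusted p = 0.0808). Its value without control replicate 1 was -0.46, under 1.5-fold. The 3 largest falls among them in this fit were those of Postn (-2.54, SE 0.41), Dcn (-2.06, SE 0.40) and Col3a1 (-1.97, SE 0.38), which were -1.40, -1.12 and -0.90 without control replicate 1, and Postn was -3.15 without control replicate 2. Without control replicate 1 Thy1 (-1.19) fell further than Dcn and Col3a1, and Pdgfra (-1.09) further than Col3a1. Thy1 alone in this list was not higher in control replicate 1 than in control replicate 2. It had 82.5 and 86.1 CPM in the control libraries and 45.9 and 25.9 CPM in the propranolol libraries. The cell type behind its level was not tested. Postn had -1.33 and Dcn, no longer called, -0.99 after the GC correction, and the falls of Pdgfra (-1.93), Col1a1 (-1.76), Thy1 (-1.64) and Col1a2 (-1.64) were then larger than that of Dcn and of Postn, and Pdgfrb (-1.18) was called lower as well. Without control replicate 1 Col1a2 was not called (-0.39), nor was it by DESeq2 (-1.20), and the value of Pdgfrb was -0.08. T and NK cell markers fell in 9 of 10 genes, with 264 and 301 CPM against 132 and 72.2 CPM. Klrd1 (-3.24, SE 0.32), Cd3g (-2.08, SE 0.28) and Cd8a (-1.84, SE 0.27) fell most in this fit, with -4.27, -2.81 and -2.56 without propranolol replicate 1 and -1.98, -1.17 and -1.75 after the GC correction, where Cd3g came behind Klrb1c (-1.65), Lck (-1.47), Ncr1 (-1.42) and Cd3d (-1.22). Ncr1 had -1.73 in this fit and -2.99 without propranolol replicate 1, where it fell further than Cd3g and Cd8a. Trac, the most abundant per length, had -1.15 (SE 0.24). Control replicate 1 stood apart in the fibroblast markers other than Thy1. Without it the log2 fold changes were 1.501 for S100a8, 2.04 for S100a9, 2.02 for Lcn2, 3.08 for Slpi, 1.75 for Hp, 2.47 for Chil1, 2.16 for Hdc, 2.17 for G0s2, 0.42 for Csf3r and 1.21 for Trem1.

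Of 7 dendritic cell markers 3 were lower, Clec9a (-1.52, SE 0.35), Xcr1 (-1.30, SE 0.34) and Cd209a (-1.02, SE 0.32), and Itgax, the most abundant, was not called (-0.01, SE 0.11). For this and the lists below, the shares over all tested genes were 15.6% lower and 12.2% higher. Flt3 (-0.98, SE 0.36) was not called, but was lower after the GC correction (-1.20), without control replicate 2 (-1.18), with upper-quartile normalization (-1.03), with the stricter filter on low counts (-0.998) and with the replicate block (-0.98). The call of Clec9a was lost without control replicate 2 (-1.15), that of Cd209a without control replicate 1 (-0.75) or propranolol replicate 2 (-0.81), and those of Xcr1 (-0.79) and Cd209a (-0.71) after the GC correction. Ppbp, a chemokine gene of platelets, was the one gene of 5 tested in the platelet and red cell list that was called, and was higher (2.25, SE 0.34), while Hbb-bs was not called (0.30, SE 0.22), although it was without control replicate 1 (0.81). Of the B cell markers Cd79b was higher (0.78, SE 0.20) and Ms4a1 lower (-2.67, SE 0.71), the former not after the GC correction (0.40) and the latter not after the GC correction (-2.02) or without any one library (-2.87 to -2.54), and Ighm was not called (0.09, SE 0.11). Of the endothelial markers Cdh5 was higher (0.77, SE 0.26), but not by DESeq2 (0.77), with upper-quartile normalization (0.71), after the GC correction (0.49) or without control replicate 2 (0.60), propranolol replicate 1 (0.78) or propranolol replicate 2 (0.78), and Pecam1 was not called (0.24, SE 0.13). Of the epithelial markers 0 of 4 were called by the edgeR test or by DESeq2, with 0 at an unadjusted p under 0.05, and Cdh1 had 0.39 (SE 0.22), but was called higher without control replicate 2 (0.59) or propranolol replicate 2 (0.73). The part of these other cells in the values of the 10 genes was not tested.

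Hdc is known from basophils and mast cells as well as from neutrophils. Of the genes that define basophils and mast cells, Mcpt8, Fcer1a and Ms4a2 had 0 counts in all 4 libraries, Tpsb2 had 3 and 3 counts against 12 and 12, and Cpa3 had 0 and 0 against 1 and 2. Together the 10 markers of these cells summed to 3.24 and 2.11 CPM in the control libraries and 1.51 and 2.16 CPM in the propranolol libraries. Gata2 was the only one tested and was called lower (-1.58, SE 0.48), but not without control replicate 1 (-1.27), without propranolol replicate 1 (-1.53) or without propranolol replicate 2 (-1.59). The part of these cells in the values of Hdc was not tested. Eosinophil markers summed to between 6.42 and 7.37 CPM in all libraries, and 0 of their 3 tested genes were called by the edgeR test or by DESeq2, with 0 at an unadjusted p under 0.05. Of all tested genes 12.2% were called higher and 15.6% lower, so nothing is read from 0 calls among 3 genes. The value of Prg2, the most abundant per length, was 0.79 (SE 0.58), 0.15 without propranolol replicate 1 and 1.49 without control replicate 1.

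The partners of the 10 genes were taken from 12 lists, with 81 tested genes of 114. By the edgeR test 23 (28.4%) were higher and 10 (12.3%) lower, against 12.2% and 15.6% of all tested genes, and the median log2 fold change was 0.26. After the GC correction 14 were higher and 2 lower, against 4.34% and 6.47% of all tested genes in that fit.

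Among granulocyte transcription factors, Cebpe, which drives the formation of specific granules, was called higher, from 1.69 and 1.75 CPM to 5.50 and 3.34 CPM (1.38, SE 0.37), but not without propranolol replicate 1 (0.96) or after the GC correction (0.98). The other 7 were not called, where 12.2% of all tested genes were called higher and 15.6% lower. Spi1, which encodes PU.1 and was the most abundant of the list, had a log2 fold change of 0.57 (SE 0.09), just under 1.5-fold, and was called higher without control replicate 1 (0.62), control replicate 2 (0.60) or propranolol replicate 2 (0.65) and with no filter on low counts (0.65). Cebpa had 247.5 and 226 CPM against 232 and 232 CPM. Cebpb had a value of 0.35 (SE 0.14).

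Of the 7 other S100 genes tested, S100a4 (0.93, SE 0.20), S100a1 (0.70, SE 0.12) and S100a6 (0.68, SE 0.17) were higher and S100a16 was lower (-1.58, SE 0.54, and -2.17 without control replicate 2). S100a11, the most abundant of them per length, was not called (0.34, SE 0.17), except without propranolol replicate 2 (0.61). S100a4 was not called without propranolol replicate 1 (0.53), S100a6 not without propranolol replicate 1 (0.47) or control replicate 2 (0.46), and S100a16 not without control replicate 1 (-0.57) or propranolol replicate 2 (-1.28). After the GC correction S100a1 (0.33) and S100a6 (0.41) were not called. The other S100 genes were not compared with S100a8 and S100a9, because that pair was chosen by its fold changes. Of all tested genes 12.2% were called higher and 15.6% lower.

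Receptors of S100A8/A9 moved in both directions. Cd14, the co-receptor of TLR4, had 350 and 308 CPM in the control libraries and 515 and 542 CPM in the propranolol libraries (0.68, SE 0.10), and Bsg, which encodes the receptor basigin, had 334 and 317 CPM against 515.5 and 496 CPM (0.64, SE 0.09). Tlr4 itself had 63.7 and 59.8 CPM against 41.2 and 36.3 CPM (-0.67, SE 0.12), and Ly96, which encodes its partner MD-2, had 7.15 and 6.42 CPM against 2.72 and 2.49 CPM (-1.37, SE 0.28). These 4 were called by the edgeR test, and after the GC correction none of the 4 was: Cd14 had 0.38, Bsg 0.17 and Ly96 -0.76, and Tlr4 changed sign to 0.15. Cd36 was called higher in that fit (0.80, against -0.13 without the correction). The call of Tlr4 was also lost without control replicate 1 (-0.57) or propranolol replicate 2 (-0.55), and that of Bsg with upper-quartile normalization (0.58). Of other alarmin genes, the heat shock genes Hspa1b (1.19, SE 0.15) and Hspa1a (1.03, SE 0.16) were higher and Hmgb1 (-1.19, SE 0.15) and Nampt (-0.94, SE 0.12) were lower. After the GC correction Hspa1b was still called (0.72), and Hspa1a (0.56), Hmgb1 (-0.47) and Nampt (-0.24) were not, while Il1a (0.77, against 0.18 without it) was called higher.

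Iron and hemoglobin genes that act beside Lcn2 and Hp were called in part. Fth1, which encodes the heavy chain of ferritin, had 3863 and 3972 CPM in the control libraries and 6783 and 6604 CPM in the propranolol libraries (0.77, SE 0.08), and Tfrc, the transferrin receptor, was lower (-0.94, SE 0.14, and -0.18 and not called after the GC correction). Slc22a17, a lipocalin-2 receptor, was not called (0.23, SE 0.33). Cd163, the scavenger receptor of haptoglobin bound to hemoglobin, had 29.5 and 21.2 CPM against 42.6 and 56.1 CPM (0.96, SE 0.18). Hmox1, heme oxygenase 1, had 320 and 355 CPM against 545 and 545 CPM (0.69, SE 0.10, and 0.35 and not called after the GC correction), and Cp, which encodes ceruloplasmin, was lower (-1.23, SE 0.16). Other acute phase genes were not called, among them Saa3 (-1.39, SE 0.56), whose value was 0.08 without control replicate 1, the only library with a high level.

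Of the genes listed with Slpi, 1 of 4 tested was called, the cystatin gene Cst3 (0.59, SE 0.09), and not without control replicate 2 (0.56), without propranolol replicate 1 (0.51), with upper-quartile normalization (0.54), with the stricter filter on low counts (0.57) or after the GC correction (0.14), in which Serpinb6a was called higher (0.79, against 0.05 without it). Of the genes listed with Chil1, Ctbs was the only one tested and was not called (-0.47, SE 0.13). The shares over all tested genes were 12.2% called higher and 15.6% lower. The genes around histamine included none that was called higher. Hnmt, which degrades histamine, fell (-1.16, SE 0.35), as did Slc18a2, the vesicular monoamine transporter that loads it (-1.70, SE 0.52), and the receptor gene Hrh2, the most abundant of the list, was not called (0.38, SE 0.12). The call of Hnmt was lost without control replicate 1 (-0.80), without propranolol replicate 1 (-1.16), without propranolol replicate 2 (-1.13) and after the GC correction (-0.13), and that of Slc18a2 without control replicate 1 (-1.26), without propranolol replicate 1 (-1.59) and after the GC correction (-1.61).

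Around G0s2, 4 of 8 tested genes of triglyceride lipolysis were higher and 0 lower (0 lower also at an unadjusted p under 0.05 in edgeR and by DESeq2). The shares over all tested genes were 12.2% higher and 15.6% lower, and 4.34% and 6.47% after the GC correction. Plin2, the coat protein of lipid droplets, had 198 and 188 CPM in the control libraries and 412 and 493.5 CPM in the propranolol libraries (1.23, SE 0.11). Hilpda, which like G0s2 encodes an inhibitor of adipose triglyceride lipase, had 31.4 and 29.1 CPM against 60.6 and 67.9 CPM (1.09, SE 0.12). Pnpla2, which encodes the lipase itself, was also higher (0.70, SE 0.10), as was Lipe, hormone-sensitive lipase (0.61, SE 0.13). After the GC correction Plin2 (0.95) and Hilpda (0.87) were called and Pnpla2 (0.24) and Lipe (0.18) were not, and Lipe also lost its call without control replicate 1 (0.54), without propranolol replicate 1 (0.58) or with upper-quartile normalization (0.55).

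The list of G-CSF receptor signalling also held genes of GM-CSF and its receptor (Csf2, Csf2ra, Csf2rb and Csf2rb2). Csf3, the gene of G-CSF itself, had 1 and 2 counts in control TAMs, against 4 and 4 in the propranolol libraries, too few for the test. Csf2ra, the alpha chain of the GM-CSF receptor, had 422.5 and 494 CPM against 1006 and 1327 CPM (1.35, SE 0.14), Stat5a was higher (0.64, SE 0.11) and Jak2 lower (-0.69, SE 0.11). Stat5a lost its call with upper-quartile normalization (0.58) and after the GC correction (0.18), and Jak2 without propranolol replicate 2 (-0.55) and after the GC correction (-0.38). Per length Csf2ra was the most abundant gene of the list in TAMs from propranolol treated mice, and Ptpn6 in control TAMs. Socs3, a feedback inhibitor of the G-CSF receptor, was not called (0.17, SE 0.12). Of the TREM receptors and adaptors, 5 of 10 were higher and 0 lower (0 lower also at an unadjusted p under 0.05 in edgeR and by DESeq2). Over all tested genes these shares were 12.2% and 15.6%, and 4.34% and 6.47% after the GC correction. Card9 had 65.5 and 81.3 CPM against 157 and 192 CPM (1.24, SE 0.14), and Trem3 had 6.27 and 5.86 CPM against 15.3 and 12.9 CPM (1.22, SE 0.20). Treml2 (0.94, SE 0.12), Trem2, a lipid receptor of macrophages (0.94, SE 0.09), and Plcg2 (0.60, SE 0.09) were called as well. Plcg2 was not called without propranolol replicate 2 (0.58), with upper-quartile normalization (0.55), with the stricter filter on low counts (0.58) or after the GC correction (0.20). Tyrobp, which encodes the adaptor DAP12 of Trem1 and was the most abundant of the list, had 462 and 465 CPM against 701 and 622 CPM (0.51, SE 0.10), under 1.5-fold, and was called higher without propranolol replicate 2 (0.63) and with no filter on low counts (0.59).

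The mean profile of the 10 genes, as log2 CPM centred on each gene's own mean, was -0.94 and -0.89 in the control libraries, against 0.86 and 0.96 in the propranolol libraries. Hp lay nearest to this mean (root mean square distance 0.0853 over the 4 libraries) and Csf3r farthest (0.641). Among 10120 other genes with a mean of at least 5 CPM, the 8 nearest were Tmem8 (distance 0.137), Sh2b2, Rhov, Adora2b, Ltc4s, Upp1, Tubb6 and Spp1 (0.207). Their log2 fold changes lay between 1.46 and 1.68. Spp1, which encodes osteopontin, had 207 and 165.5 CPM in the control libraries and 588 and 514.5 CPM in the propranolol libraries, and Adora2b, an adenosine receptor, had 6.95 and 6.38 CPM against 23.4 and 18.5 CPM. With 4 libraries in 2 groups this likeness rests mostly on the size of the group difference, and it is a description without a test.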

How the data were processed

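The authors mapped reads to mm10 (STAR 2.7.1a), filtered alignments with SAMtools 1.9 and counted fragments on GENCODE exons with featureCounts 1.6.4 (tools and versions from the submitters' processing notes, which also name DESeq2 1.39.0). The deposited values are whole-number counts per gene without normalization, and 0 columns were left out. Neither the annotation release nor a strand option is given in the sources used here.

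Symbols, lengths and GC content came from GENCODE release M21 (54079 genes matched) and promoters from RefSeq (GRCm38.p6, no entry used for Hp). The 10 genes and all gene lists were chosen with earlier results of these data known. The named genes are the 10, every neutrophil marker, from each other list the called genes (all if 5 or fewer, otherwise the 3 with the largest change) and the most abundant gene by TPM, and the 8 nearest in pattern. Others were named after their values were seen.

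Counts were compared with the quasi-likelihood test of edgeR 4.0.16 (R 4.3.3) with TMM factors, filterByExpr (minimum count 10), no covariate and Benjamini-Hochberg adjustment. P-values measure the spread between these libraries, 2 per group. The step was tested on simulated data. Alternatives were DESeq2 1.42.0, other size factors, filters and fold thresholds, each library left out, a replicate block, and removal of each library's smooth trend on GC content (spline, 5 degrees of freedom). TPM used the summed exon length, or that of the longest transcript as an alternative. Counting intervals cover counting error only.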

Additional observations from a re-analysis of the deposited data

How the results depend on the processing

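The edgeR test called 4084 genes (44.0% of them higher), and between 3615 and 4329 with 1 library left out (54.4% higher without control replicate 1, labelled vehicle). The count was 1588 after the GC correction, 2036 after the GC correction with replicate block, 1855 when the GC trend was not centred (60.5% higher, chosen after seeing the data), 1571 at a 2-fold threshold (18.1% higher) and 6204 without a fold threshold. With the replicate block it was 4362. The correlation of same-numbered libraries was 0.169, and nothing in the labels says that a number marks a shared mouse, batch or day, so the libraries were not treated as pairs. The number of partner genes called was 33, between 27 and 34 with 1 library left out, 16 after the GC correction, also when not centred, 19 after the GC correction with replicate block and 14 at 2-fold. The number of neutrophil genes called higher was 15, between 11 and 18 under all alternatives run and 12 to 16 when 1 library was left out. Tlr4 changed from -0.67 to 0.15 after the GC correction and 0.14 with the replicate block added, and the cause was not tested. No member changed sign under the 12 alternatives run for single genes, which leave out the trend that was not centred, and the log2 fold changes of 9 stayed above 1 under these. The 8 genes nearest in pattern were the same at a prior count of 5. Low counts limit Lcn2, Chil1 and the primary granule genes, and 2 libraries per group limit every error given.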
